A study of Chlamydomonas reinhardtii with 12 samples.

Results

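The comparison set the 6 libraries of the mutant strain vip1-1 of the green alga Chlamydomonas reinhardtii against the 6 libraries of the wild-type, over both culture conditions at once. All 12 libraries of the series were used, so none was left aside. Both genotypes grew in liquid TAP medium (a Tris-acetate-phosphate medium that supplies acetate as carbon source) at 25 °C under 50 µmol photons per square metre and second. The control groups were harvested after 24 h and the nutritional stress groups after 14 days, and each of the 4 groups held 3 libraries of polyadenylated RNA. The age of a culture and its nutrient state therefore changed together. The labels give CC-1690 as the strain of every sample and name 1 mutant allele, so any other difference between the wild-type cells and the vip1-1 cells cannot be told apart from the effect of vip1-1. A gene was tested in 1 additive model in which condition and genotype each had a term. A difference that was alike in fresh and old cultures counts fully in the genotype term, whereas one present in a single condition counts by its average.

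Inositol pyrophosphates are small, highly phosphorylated signalling molecules derived from phytate. Enzymes of the VIP family are kinases that add a phosphate to a phosphate already on an inositol ring, which forms a pyrophosphate group. In plants and fungi these molecules bind SPX domains and report the phosphate state of the cell, and in this alga they have been linked to growth control by the TOR kinase. The series text describes vip1-1 as deficient in them and asks how they act when nutrients run short. The reference table used here gives no gene a symbol, a product or a sequence, so genes are named by ID and no function is given for any of them. For the same reason the disrupted gene was not looked up as a check of the labels.

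Depth and library composition moved with genotype. Total counts ran from 9749837 to 28833327 per library. A group of 6 features, the most abundant ID and those whose log counts followed it at a correlation over 0.98, took between 9.32% and 71.0% of the counts in the wild-type libraries and between 0.561% and 46.9% in the vip1-1 libraries. Their share was 8.25 times higher in wild-type by geometric mean (exact two-sided permutation test within conditions, p = 0.01), or 5.37 and 13.3 times without vip1-1 stress replicate 1 or 3. The remaining counts added up to 56312795 in wild-type and 111945168 in vip1-1, so low levels were read less precisely in wild-type. The replicates are called biological in the labels, with no word on whether cultures were separate, so p-values measure the spread between these libraries.

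Of 15286 genes tested, 193 passed the threshold for genotype (quasi-likelihood F test of edgeR, Benjamini-Hochberg adjusted p below 0.05), which is 1.26% of all tested genes. In vip1-1, 135 were higher (0.883%) and 58 lower (0.379%), and 174 of the 193 differed by at least 1 on the log2 scale. Called genes higher in vip1-1 had a median log2 fold change of 2.52, against 0.34 among all tested genes above 0. Those lower in it had a median of -1.53, against -0.28 among all tested genes below 0. A call favours large differences by itself. The median over all tested genes, both directions together, was 0.08. Taken alone, control called 39 genes (0.255%) and stress 239 (1.56%). Among the 193 genes, 94 were called in neither condition alone.

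These counts moved with the fit. Leaving out 1 library gave 280 genes without wild-type control replicate 3. It gave 95 and 90 without wild-type stress replicates 1 and 2, 110 and 98 without vip1-1 control replicates 1 and 2, and 96 and 94 without vip1-1 stress replicates 2 and 3. With the abundant-feature share as a covariate the count was 35, all of them among the 193. The labels number the replicates 1 to 3 in each group, and with that number as a block 124 genes were called. When libraries were scaled by their totals alone, 137 of 150 called genes (91.3%) were higher in vip1-1, against 69.9% here, while the median of all tested genes moved to 0.65.

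Nearly all called genes differed in the same direction in fresh and old cultures. This was so for 192 of 193 genes, or 99.5%, against 54.8% of all tested genes, a share that selection on the average difference raises by itself. A difference was counted as matching when the gene was called, its log2 fold changes in control and stress had the same sign and lay less than 1 apart, and the libraries of the genotypes did not overlap in either condition. That held for 116 genes (0.759% of tested genes), 74 higher (0.484%) and 42 lower (0.275%) in vip1-1. With each condition tested by itself, 15 of the 116 were called in control, 50 in stress, 13 in both and 64 in neither. Their log2 fold changes in control and stress lay a median of 0.40 apart (median SE of the gap 0.50), a size that the rule itself keeps small. Over all 193 called genes the median gap was 0.71 (median SE 0.68). In 62 of the 116 the difference was larger in stress. Non-overlap alone, in the same direction in both conditions, was met by 685 tested genes (4.48%). The other 77 called genes comprised 71 with the same sign but a gap of at least 1, 5 whose libraries overlapped and 1 with opposite signs. A gap can also arise from low counts. Of the genes with a gap of at least 1, 27 had a group with 3 counts or fewer in every library. A fitted fold change depends on the prior count there. The same holds for 6 of the 116 matching genes, whose small gap depends on it as well.

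**Figure D1:**
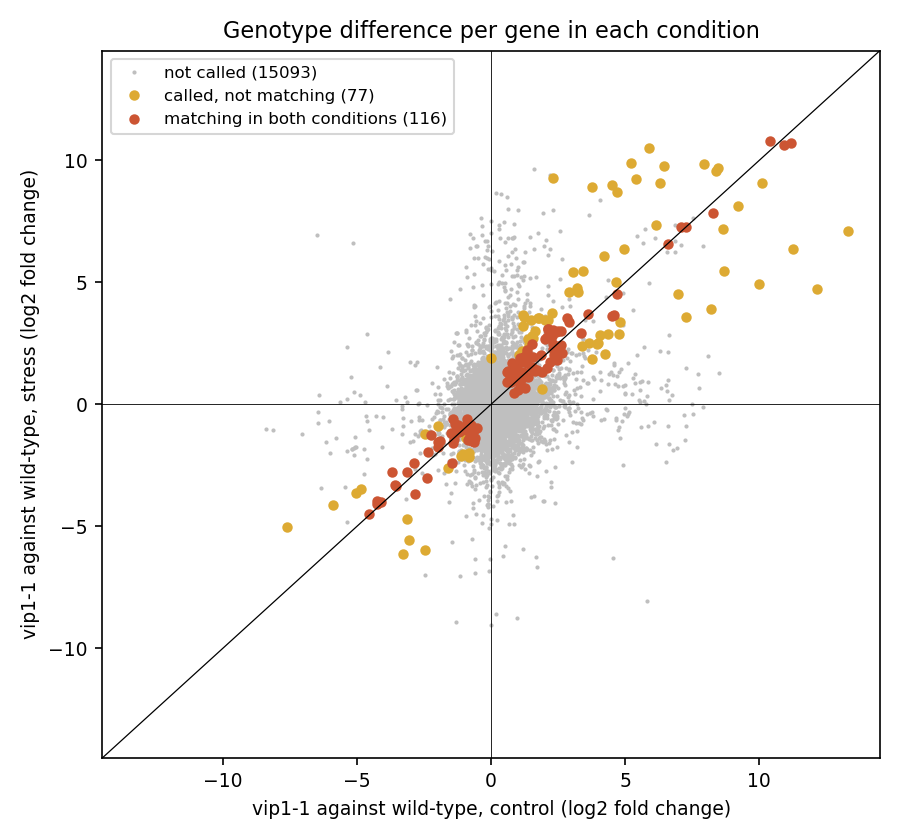
Log2 fold change of vip1-1 against wild-type in control (horizontal axis) and in stress (vertical axis) for the 15286 tested genes, with the line of equal difference. The 116 genes with a matching difference lie along that line in both directions, and the 77 other called genes spread around it, 28 of those with a gap of at least 1 being larger in control and 44 larger in stress.

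The strongest of these differences were transcripts read in vip1-1 and not in the wild-type libraries. Over the whole count table, 15 IDs were at 0 counts throughout wild-type and had at least 1 count in every vip1-1 library, and no ID showed the reverse. Of the 15, 14 were tested, 12 were called and 6 matched between conditions. The IDs were picked for this very pattern, so those calls give it no separate support. With wild-type at 0 in both conditions each fold change depends on the prior count, so a match of the conditions says little for these IDs. Because vip1-1 was read more deeply, a limit in CPM (counts scaled to a common library size with TMM factors) was also used. By that limit, 9 tested genes had at most 1 CPM in every wild-type library and at least 3 CPM in every vip1-1 library. The opposite was met by 0 tested genes. The limits were chosen after values were seen, and Cre02.g141550 missed the opposite narrowly. It had 12.2 to 24.9 CPM in the wild-type libraries and 0.351 to 1.07 CPM in the vip1-1 libraries. All 9 genes high in vip1-1 were called, as their selection favours, 4 of them matched and 3 carried a chromosome 16 ID.

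No wild-type library held a read of Cre16.g674151. In vip1-1 it stood at 13.9, 15.5 and 14.6 CPM in control and at 13.3, 8.18 and 9.95 CPM in stress. Against a floor of 3 counts per wild-type library it was at least 36.9-fold higher, or 54.4-fold without wild-type control replicate 1 (adjusted p 0.00017, edgeR). The bound was 36.1-fold in control and 38.1-fold in stress. Its 6 vip1-1 libraries lay between 8.18 and 15.5 CPM, close together beside the gap to wild-type.

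Cre12.g532300 was likewise at 0 in wild-type. It measured 15.6, 15.9 and 4.69 CPM in the vip1-1 controls and 6.55, 12.6 and 10.7 CPM in vip1-1 stress. It was higher by at least 32.2-fold (adjusted p 0.0017, edgeR), or 47.6-fold without wild-type control replicate 1. Cre03.g201888 measured 10.9, 12.8 and 1.86 CPM in the controls and 11, 10.9 and 11.7 CPM in stress. The bound was at least 28.9-fold (adjusted p 0.0035, edgeR), or 42.7-fold without the same library. In both genes vip1-1 control replicate 3 was the lowest library of its genotype, and it still stood apart from wild-type. Cre03.g151450 was read in 2 wild-type libraries only, at 0.477 CPM in control replicate 3 and 0.657 CPM in stress replicate 3. In vip1-1 it ran from 7.68 to 34.2 CPM in control and from 13.7 to 28.7 CPM in stress, a log2 difference of 6.58 (SE 0.79, adjusted p 0.0017, edgeR). Without either of those wild-type libraries the estimate was 7.29 or 7.23, with the call kept. All 4 were called, as higher, in the 24 alternatives that tested them, that is all but the filter requiring 10 counts per library.

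A further set was read in both genotypes, at low levels in wild-type, and was several times higher in vip1-1. In Cre08.g359300 the wild-type counts were 0, 13 and 22 in control and 5, 9 and 8 in stress. Its fold change therefore rests on few wild-type counts. Cre08.g359300 had 0.586 ± 0.512 CPM in wild-type control and 0.717 ± 0.410 CPM in wild-type stress, and 17.1 ± 15.2 and 8.67 ± 2.57 CPM in vip1-1 (SD, n = 3 each). Its log2 fold change was 4.13 (SE 0.57, adjusted p 0.0034, edgeR), and the wide control SD came from vip1-1 control replicate 3 at 34.7 CPM beside 8.25 and 8.35. That call was lost under limma voom and under the share covariate (adjusted p 0.1 with the latter). Cre01.g009500 was 2.80 higher (SE 0.49, adjusted p 0.015, edgeR), at 1.61 ± 1.55 and 1.05 ± 0.262 CPM in wild-type against 11.1 ± 5.61 and 8.50 ± 0.785 CPM in vip1-1 (SD, n = 3 each, control then stress). Leaving out wild-type stress replicate 1 or 2 took its adjusted p to between 0.053 and 0.055.

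Some genes carried a genotype difference and a culture-age difference that added to each other. Cre09.g414416 rose from 0.712 ± 0.778 CPM in control to 4.65 ± 0.984 CPM in stress in wild-type. In vip1-1 the same groups held 6.07 ± 3.57 and 49.2 ± 9.38 CPM (SD, n = 3 each). The genotype difference was 2.90 in control and 3.39 in stress on the log2 scale (additive 3.18, SE 0.51, adjusted p 0.009, edgeR), and the condition term was 2.81 (adjusted p 0.0009, edgeR). Cre13.g587850 showed the same arrangement, with 2.59 ± 1.25 and 8.46 ± 1.14 CPM in wild-type and 14.8 ± 6.82 and 65.6 ± 18.4 CPM in vip1-1 (SD, n = 3 each). Its genotype term was 2.70 (SE 0.31, adjusted p 0.0015, edgeR). Old wild-type cultures thus held less of either transcript than old vip1-1 cultures, and the groups did not overlap. Cre12.g541550 had 3.57 ± 1.34 and 9.82 ± 3.91 CPM in wild-type against 14.7 ± 2.13 and 66.0 ± 31.5 CPM in vip1-1 (SD, n = 3 each), with a genotype term of 2.44 (SE 0.32, adjusted p 0.0022, edgeR). Cre16.g683600 had no such condition term (0.37, adjusted p 0.55, edgeR). It was 2.52 higher in vip1-1 (SE 0.47, adjusted p 0.022, edgeR), a call lost without any of wild-type stress replicates 1 and 2, vip1-1 control replicates 1 and 2 or vip1-1 stress replicates 2 and 3 (adjusted p 0.061 to 0.078). Under the share covariate, Cre09.g414416, Cre12.g541550 and Cre16.g683600 were no longer called (adjusted p 0.16, 0.072 and 0.21), and Cre13.g587850 was (adjusted p 0.03).

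**Figure D2:**
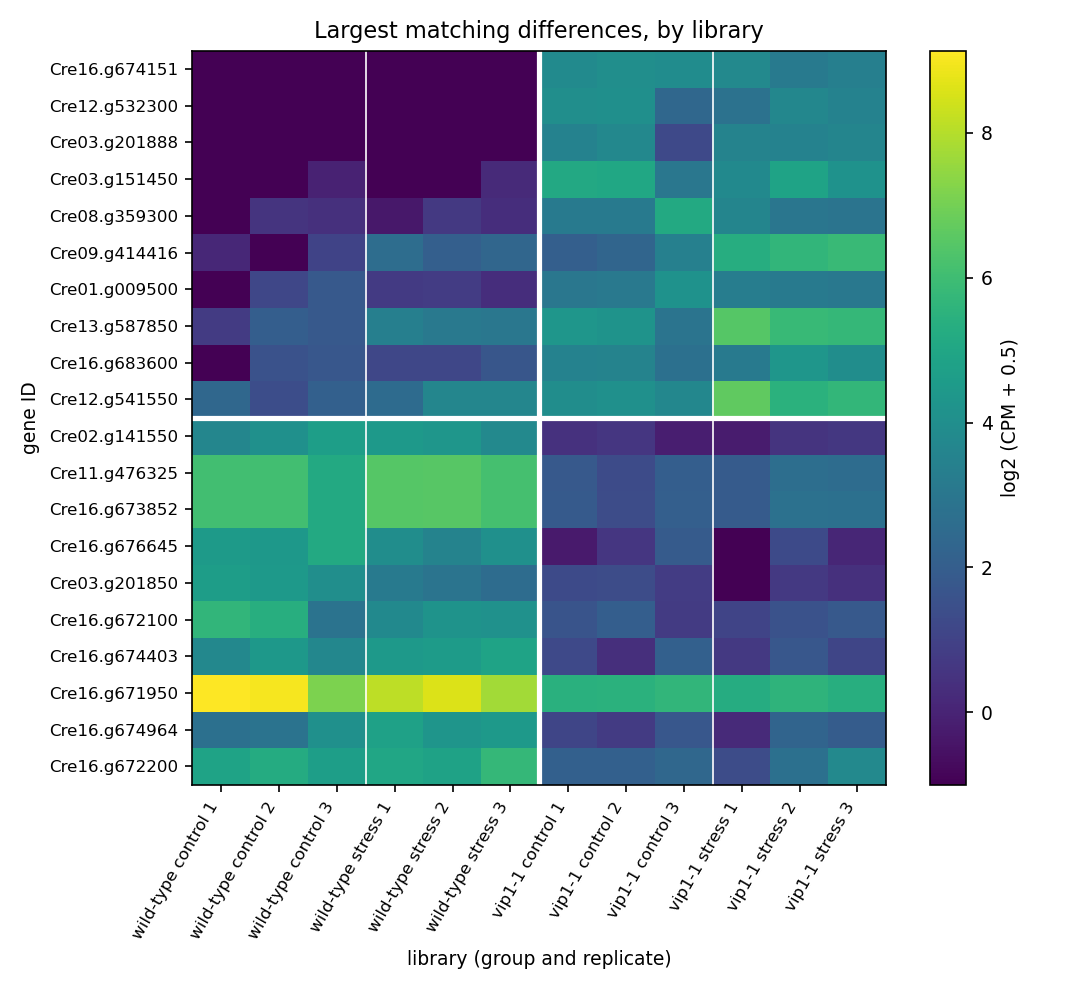
Level of the 10 genes with the largest positive (top) and the 10 with the largest negative (bottom) matching difference, as log2 of CPM plus 0.5, in the 6 wild-type libraries (left) and the 6 vip1-1 libraries (right). Cre16.g674151, Cre12.g532300 and Cre03.g201888 are at 0 in every wild-type library, whereas the lower genes keep a weak signal in most vip1-1 libraries.

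Among the genes lower in vip1-1, Cre02.g141550 had the largest matching difference. It stood at 12.2, 16.7 and 24.9 CPM in wild-type control and at 21.3, 19.8 and 13.3 CPM in wild-type stress. In vip1-1 it was at 0.861, 0.999 and 0.396 CPM in control and at 0.351, 0.941 and 1.07 CPM in stress. The log2 fold changes were -4.57 in control and -4.51 in stress, with a gap of 0.06 (SE 0.65), and the additive value was -4.54 (SE 0.35, adjusted p 7.1e-05, edgeR). Cre03.g201850 had 20.3 ± 4.43 CPM in wild-type control and 6.90 ± 1.40 CPM in wild-type stress, against 1.75 ± 0.434 and 0.647 ± 0.580 CPM in vip1-1 (SD, n = 3 each). Its log2 difference was -3.45 (SE 0.51, adjusted p 0.0056, edgeR), and it also fell with culture age (condition term -1.47, adjusted p 0.029, edgeR). This call was lost under the share covariate (adjusted p 0.31).

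Cre11.g476325 and Cre16.g673852 gave nearly the same reading. Their counts differed by at most 0.442% in each wild-type library and by at most 11.3% in each vip1-1 library, so they cannot be taken as separate genes if reads were shared between copies. Cre16.g673852 had 56.1 ± 18.2 and 82.1 ± 10.9 CPM in wild-type and 2.96 ± 0.835 and 5.23 ± 1.75 CPM in vip1-1 (SD, n = 3 each, control then stress). The additive log2 fold changes were -4.18 (SE 0.25) for Cre11.g476325 and -4.10 (SE 0.26) for Cre16.g673852, at adjusted p 1e-05 and 1.2e-05 by edgeR. Every one of the 25 alternatives called both, as it did Cre16.g674403, which had 15.3 ± 4.68 and 24.5 ± 4.05 CPM in wild-type against 2.15 ± 1.55 and 1.90 ± 0.909 CPM in vip1-1 (SD, n = 3 each). Cre02.g141550 was called under the 24 alternatives that tested it.

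Most of the genes with a matching difference were expressed at moderate levels. The median of the deposited FPKM (fragments scaled by gene length and library size), averaged over the 12 libraries, was 6.23 among the 116 genes and 3.80 among all tested genes. FPKM served to rank genes by level per length, while differences are given in CPM, since the deposited FPKM carries no correction for the 6 features.

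Cre03.g203850 had the highest level among the matching genes, with a mean FPKM of 315. It stood at 423, 323 and 468 CPM in wild-type control, at 534, 442 and 287 CPM in wild-type stress, at 823, 785 and 852 CPM in vip1-1 control and at 701, 1070 and 671 CPM in vip1-1 stress. The genotype difference was thus 1.02 in control and 0.95 in stress on the log2 scale (additive 0.99, SE 0.19, adjusted p 0.028, edgeR), a fold of 1.98 with no detectable condition term (0.02, adjusted p 0.93, edgeR). The call did not hold without replicate 2 of wild-type control or of wild-type stress, vip1-1 control replicate 1 or 2 or vip1-1 stress replicate 2 (adjusted p 0.06 to 0.084). It was also lost by library totals alone and under the share covariate (adjusted p 0.53 with the latter, edgeR). Cre07.g353300 was steadier. It had 40.5, 45.1 and 35.2 CPM in wild-type control and 80.6, 80.2 and 74.9 CPM in vip1-1 control, then 19.5 ± 0.617 CPM (SD, n = 3) in wild-type stress and 57.3, 45.7 and 46.1 CPM in vip1-1 stress. Its additive value was 1.16 (SE 0.14, adjusted p 0.0017, edgeR), and of 25 alternatives the share covariate alone lost the call (adjusted p 0.069).

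The other abundant genes higher in vip1-1 depended on more of the libraries. Cre02.g144650 differed by 2.18 (SE 0.45, adjusted p 0.036, edgeR), but by 1.47 without vip1-1 control replicate 3, which held 371 CPM beside 52.8 and 52.9 CPM in the other controls. Its call was lost in 9 of the 12 fits without 1 library, namely any wild-type library or any vip1-1 stress library (adjusted p 0.054 to 0.094). Cre02.g073400 differed by 0.67 (SE 0.14, adjusted p 0.042, edgeR), and 10 of the 12 such fits lost it (adjusted p 0.051 to 0.12), those without wild-type or vip1-1 control replicate 3 being the exceptions. Under the share covariate neither Cre02.g144650 nor Cre02.g073400 was called (adjusted p 0.85 and 0.66, edgeR), and library totals alone also lost Cre02.g073400.

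Among abundant genes lower in vip1-1, Cre06.g257500 stood at 893, 1070 and 725 CPM in wild-type control and at 517, 480 and 514 CPM in vip1-1 control. In stress it was at 292, 252 and 418 CPM in wild-type and at 146, 109 and 108 CPM in vip1-1. The additive log2 fold change was -1.12 (SE 0.19, adjusted p 0.013, edgeR), with a condition term of -1.77 (adjusted p 2.5e-05, edgeR), so that both old age and vip1-1 went with less of this transcript. Without vip1-1 stress replicate 3 its adjusted p was 0.063. The call was also lost by library totals alone and under the share covariate (adjusted p 0.45 and 0.2, edgeR). Cre16.g680230 fell by 1.92 on the log2 scale (SE 0.22, adjusted p 0.0016, edgeR), from 208 ± 32.6 to 76.1 ± 7.97 CPM in control and from 119 ± 36.0 to 22.6 ± 2.80 CPM in stress (SD, n = 3 each). Its differences of -1.45 and -2.39 were among the 5 matching genes with an unadjusted interaction p under 0.05 (0.018, adjusted 0.52, edgeR).

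Cre13.g603500 was at 315 ± 30.8 and 403 ± 95.6 CPM in wild-type and at 192 ± 7.89 and 211 ± 36.2 CPM in vip1-1 (SD, n = 3 each), a log2 difference of -0.82 (SE 0.16, adjusted p 0.026, edgeR). It was not called in 8 of the 12 fits without 1 library (adjusted p 0.052 to 0.089), all but those without replicate 3 of either control group, wild-type stress replicate 3 or vip1-1 stress replicate 1. The call also depended on the scaling. It was lost by library totals alone and under the share covariate (adjusted p 0.77 and 0.31, edgeR). Across the alternatives its log2 difference ran from -0.96 to -0.16. Cre03.g194517 differed by -1.07 (SE 0.23, adjusted p 0.044, edgeR). Among the fits without 1 library, its call was kept only without replicate 3 of wild-type control or of wild-type stress (otherwise 0.061 to 0.16). Library totals alone and the share covariate lost it as well (adjusted p 0.67 with the latter, edgeR). Its counts lay within 15% of those of Cre06.g298400 in every library, which leaves its own level uncertain, since reads of copies may have been divided. Cre06.g298400 itself measured -1.05 (SE 0.24) and missed the threshold (adjusted p 0.053, edgeR).

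**Figure D3:**
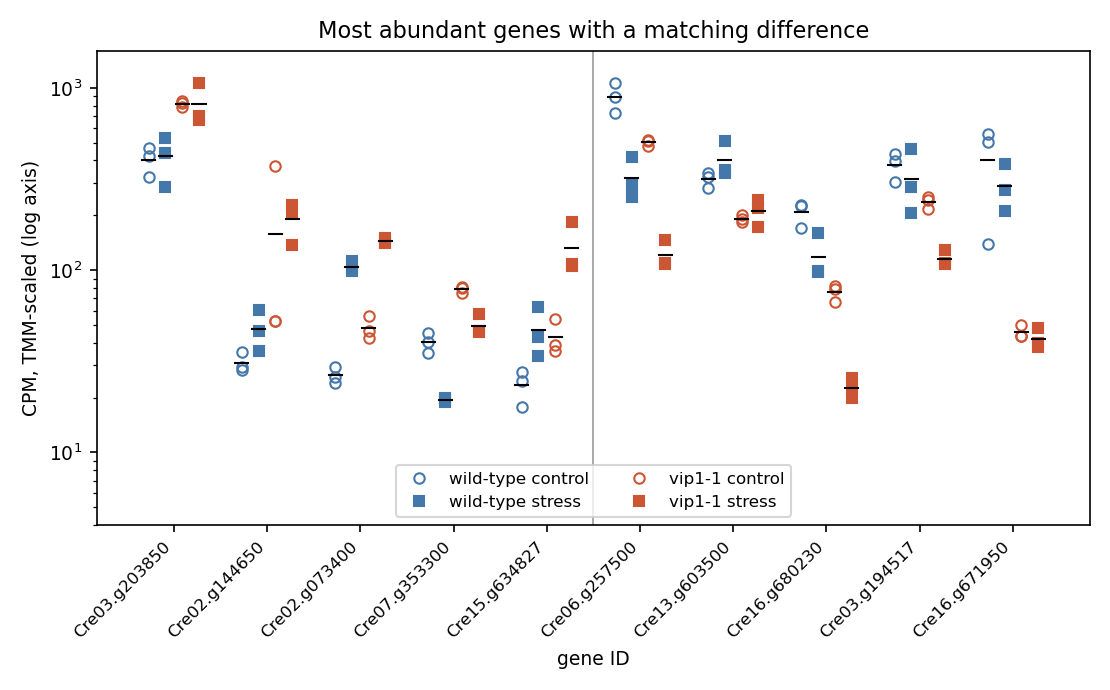
CPM by library on a log axis for the 5 most abundant matching genes in each direction, ranked by mean FPKM, with a bar at each group mean of 3 libraries. In each gene the vip1-1 points lie above (left 5) or below (right 5) the wild-type points of the same condition, while 6 of the 10 were also called for condition: Cre02.g073400, Cre07.g353300, Cre15.g634827, Cre06.g257500, Cre16.g680230 and Cre03.g194517.

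Some of the 116 matching genes also differed between fresh and old cultures. In the same additive model 64 of them were called for condition, or 55.2%, against 38.8% of all tested genes. Of these, 40 were higher in stress (34.5%, against 20.9% of all tested genes) and 24 lower (20.7%, against 17.9%). Among the genes higher in vip1-1, 28 rose in stress and 11 fell, and among those lower in vip1-1, 12 rose and 13 fell. The genotype difference therefore lay on top of either direction of the culture-age response.

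Called genes were unevenly spread over the chromosomes written into the IDs. Chromosome 16 held 38 called genes among 1148 tested (3.31%), whereas the 16 other chromosomes together held 153 among 13990 (1.09%). The 38 include Cre16.g660700, whose counts were close in every library to those of the called gene Cre13.g585026 (753 and 734 in all). Its place is uncertain if reads were shared. Of the 58 genes lower in vip1-1, 22 carried a chromosome 16 ID, and of the 21 that were lower by at least 2 on the log2 scale, 13 did. Chromosome 15 had 7 called genes among 180 tested (3.89%), all higher in vip1-1. At the other end, chromosome 6 had 5 among 1344 (0.372%). Chromosomes 4, 7, 14 and 15 held no called gene that was lower in vip1-1.

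**Figure D4:**
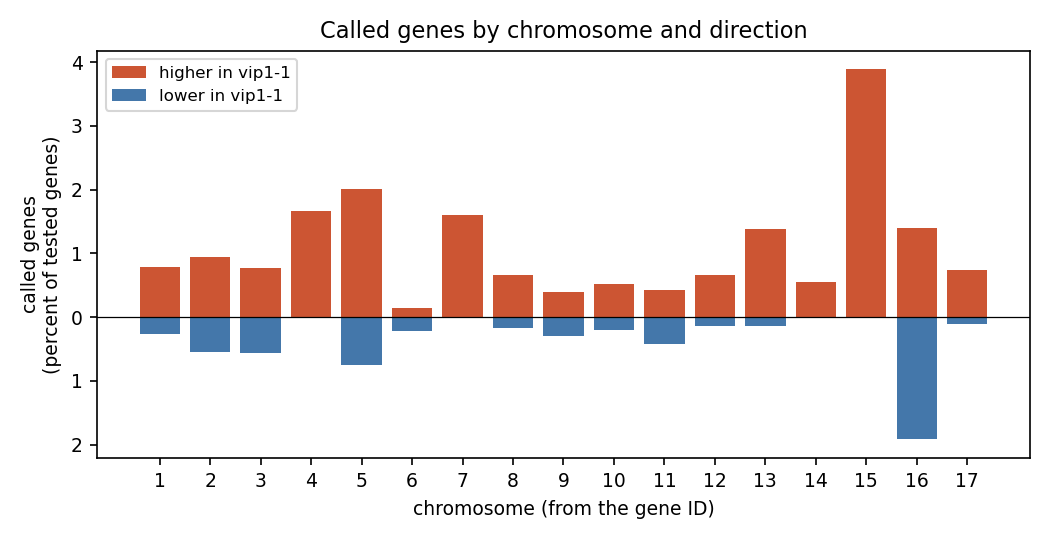
Called genes as a percent of the tested genes of each chromosome, higher in vip1-1 above the line and lower in vip1-1 below it. Chromosome 16 has the longest lower bar, with 22 genes among 1148 tested, and chromosome 15 the longest upper bar, with 7 among 180.

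In the gene order of the reference assembly Chlamydomonas_reinhardtii_v5.5, the 22 genes of chromosome 16 called lower all lay in a single stretch. It ran from Cre16.g673852 to Cre16.g680566 and covered 110 of the 1148 tested genes, and 16 of the 22 matched between conditions. Its first gene, Cre16.g673852, had nearly the same counts as Cre11.g476325, so its place in the stretch is uncertain if reads were shared. The stretch was drawn from the called genes themselves, and its share is a description only. Log2 fold changes of the 22 ran from -4.96 to -0.80 with a median of -2.40. With the abundant-feature share as a covariate, only 3 of the 22 stayed called. For condition, 8 of the 22 were called (36.4%), close to the 38.8% of all tested genes. Of the 86 genes in the stretch that were not called, 55 were below 0 (64.0%, median -0.21), against 45.8% of the 1024 uncalled genes elsewhere on the chromosome (median 0.06). The stretch also held Cre16.g673400, which was unread in wild-type and was called higher in vip1-1, and Cre16.g674291, also called higher.

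Within that stretch 13 called genes formed the longest run, defined as called genes of 1 direction with at most 5 tested genes between neighbours. It spanned 40 tested genes. Its first members in order were Cre16.g672200, Cre16.g672100, Cre16.g672050 and Cre16.g671950. Cre16.g671950 had the highest level of the 4, with a mean FPKM of 80.0. It measured 562, 505 and 140 CPM in wild-type control and 277, 384 and 211 CPM in wild-type stress. The vip1-1 libraries were close together, at 43.3, 43.7 and 50.2 CPM in control and 37.9, 48.4 and 40.1 CPM in stress, giving a log2 difference of -2.96 (SE 0.31, adjusted p 0.00078, edgeR). Culture age made no detectable difference to it (condition term -0.29, adjusted p 0.46, edgeR).

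Cre16.g672200 went from 30.2 ± 5.87 and 37.6 ± 13.3 CPM in wild-type to 4.06 ± 0.516 and 7.07 ± 5.56 CPM in vip1-1 (SD, n = 3 each), a log2 difference of -2.65 (SE 0.37, adjusted p 0.0035, edgeR). Its neighbour Cre16.g672100 changed by -3.25 (SE 0.47, adjusted p 0.0047, edgeR). Cre16.g672050 was the weakest call of the 4, at -4.27 (SE 0.94, adjusted p 0.049, edgeR), and 11 of the 12 fits without 1 library lost it (adjusted p 0.05 to 0.14), all but the one without wild-type control replicate 1. Farther along the stretch, Cre16.g676645 had 26.0 ± 8.10 and 14.2 ± 2.90 CPM in wild-type against 1.52 ± 1.52 and 0.828 ± 0.985 CPM in vip1-1 (SD, n = 3 each), at -4.06 (SE 0.67, adjusted p 0.01, edgeR). Cre16.g674964 changed by -2.71 (SE 0.45, adjusted p 0.01, edgeR). Under the share covariate, Cre16.g671950, Cre16.g672200, Cre16.g672100, Cre16.g676645 and Cre16.g674964 kept their sign and missed the threshold (adjusted p 0.071, 0.16, 0.33, 0.18 and 0.18).

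**Figure D5:**
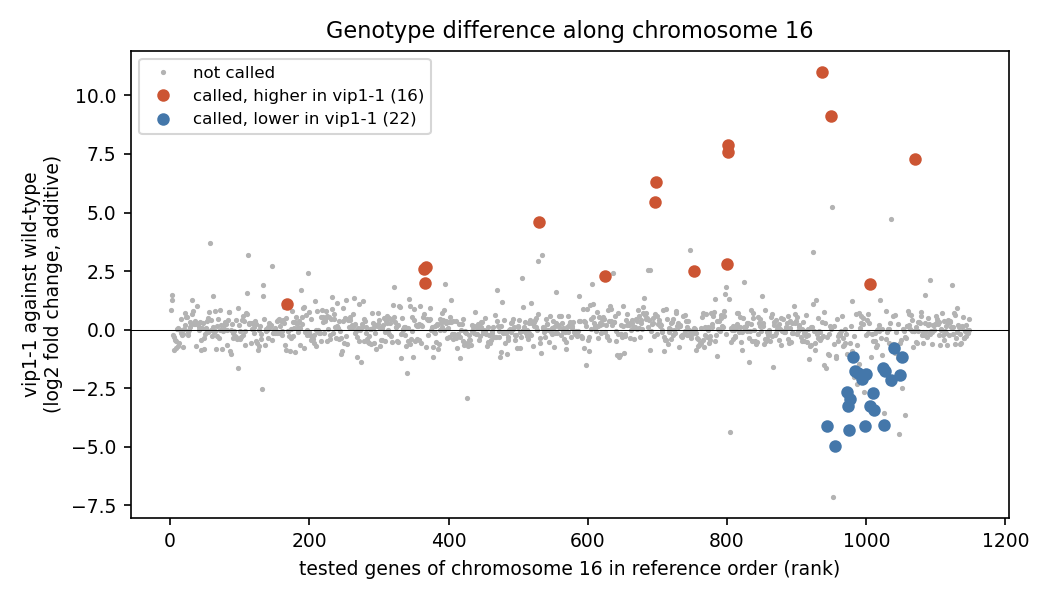
Log2 fold change of vip1-1 against wild-type (additive model) for the 1148 tested genes of chromosome 16, in the order of the reference assembly. The 22 genes called lower all lie between ranks 943 and 1052, while the 16 called higher are spread along the chromosome.

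Neighbouring called genes higher in vip1-1 also occurred. Among all called genes there were 15 runs of at least 2 genes, holding 47 genes, and 7 of these runs lay on chromosome 16. A run of 3 genes there included Cre16.g660700, with counts close to those of Cre13.g585026. The longest upward run was on chromosome 15, with 4 genes over 9 tested ones. Its members Cre15.g634550, Cre15.g634582, Cre15.g634650 and Cre15.g634827 had log2 fold changes of 2.14, 1.97, 2.74 and 1.20 (SE 0.40, 0.37, 0.47 and 0.24, adjusted p 0.023, 0.024, 0.014 and 0.03 by edgeR). Cre15.g634650 stood at 3.32 ± 2.48 and 9.74 ± 5.54 CPM in wild-type and at 40.4 ± 2.83 and 34.8 ± 3.07 CPM in vip1-1 (SD, n = 3 each), and it was the only one of the 4 called in every fit without 1 library. Under the share covariate none of the 4 was called (adjusted p 0.25, 0.29, 0.16 and 0.66 in the same order). Apart from Cre15.g634650, each was lost in 7 of the 12 fits without 1 library. Cre15.g634550 and Cre15.g634582 were lost without any wild-type stress library, vip1-1 control replicate 1 or 2, or vip1-1 stress replicate 2 or 3, at adjusted p 0.052 to 0.074. For Cre15.g634827 they were those without any wild-type stress library, vip1-1 control replicate 2 or 3, or vip1-1 stress replicate 2 or 3 (adjusted p 0.052 to 0.09).

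A run of 3 adjacent tested genes on chromosome 16, outside the stretch above, went the same way. Cre16.g681200 was at 0.171 ± 0.297 CPM in wild-type control and 0.621 ± 0.540 CPM in wild-type stress, from 0, 0, 14, 15, 8 and 0 counts. In vip1-1 it was at 109, 104 and 128 CPM in control and at 85.8, 93.9 and 98.8 CPM in stress, a log2 difference of 7.87 (SE 0.64, adjusted p 9.8e-05, edgeR). Its mean FPKM in vip1-1, 98.3, was the highest among the 9 genes with at most 1 CPM in every wild-type library and at least 3 in every vip1-1 library. Beside it, Cre16.g681100 had 5 counts in wild-type stress replicate 1 and 0 in the other wild-type libraries, against 15.5 ± 4.42 and 10.9 ± 1.43 CPM in vip1-1 (SD, n = 3 each). Its log2 fold change was 7.59 (SE 0.73, adjusted p 0.00033, edgeR). It rests on those 5 counts, since without that library wild-type stood at 0 and the fitted value would depend on the prior count. Cre16.g681250, the third, was not silent in wild-type. With culture age it went up from 0.671 ± 0.627 to 10.3 ± 4.88 CPM there. The vip1-1 groups were at 4.66 ± 0.811 and 82.2 ± 4.87 CPM (SD, n = 3 each), with a genotype term of 2.79 (SE 0.35, adjusted p 0.0019, edgeR) and a condition term of 3.93 (adjusted p 7.4e-06, edgeR). Each of the 3 was called under all 24 alternatives that tested it.

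Called neighbours of opposite direction also occurred. There were 9 pairs of successive called genes with at most 5 tested genes between them and opposite signs, 3 of them on chromosome 16. On chromosome 2, Cre02.g085750 (6.11) and Cre02.g085800 (-3.91) were directly adjacent among tested genes, and on chromosome 16 so were Cre16.g674291 (1.93) and Cre16.g674403 (-3.25), all on the log2 scale.

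Called genes whose difference was unequal between conditions completed the list. Of the 193 called genes 25 had an unadjusted interaction p under 0.05 (13.0%, against 8.0% of tested genes). An adjusted interaction p under 0.05 was met by 0 of them and by 6 tested genes (0.0393%, edgeR). Among the 3 genes higher in vip1-1 with the largest gaps, 2 were near 0 in every wild-type library. Cre12.g537611 had 0 counts in the 3 wild-type controls and 9, 3 and 0 in wild-type stress, against 64.0 ± 7.92 and 44.4 ± 7.08 CPM in vip1-1 (SD, n = 3 each). Its additive value was 8.42 (SE 0.70, adjusted p 9.8e-05, edgeR). Without wild-type stress replicate 1 it was fitted at 9.91, on 3 wild-type counts in all, so that value depends on the prior count. Cre01.g021350 had 0 counts in the wild-type controls and 15, 2 and 5 in wild-type stress, against 28.4 ± 3.04 and 15.4 ± 2.98 CPM in vip1-1 (SD, n = 3 each). Its additive value was 6.29 (SE 0.77, adjusted p 0.0017, edgeR), 7.37 without wild-type stress replicate 1, and its interaction missed the threshold at an adjusted p of 0.061 (edgeR). In level both genes were high in every vip1-1 library and near 0 in every wild-type library, and the gap in fitted fold change rests on those few wild-type counts.

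Cre07.g326700 was the third. Its level dropped with culture age, to 0 counts in wild-type stress from 8.92, 10.8 and 3.49 CPM in wild-type control. In vip1-1 it was at 50.9, 51.6 and 10.7 CPM in control and at 4.38, 3.69 and 3.40 CPM in stress. Its additive value was 3.35 (SE 0.71, adjusted p 0.04, edgeR), and 10 of the 12 fits without 1 library lost it (adjusted p 0.05 to 0.11), all but those without wild-type control replicate 2 or vip1-1 control replicate 3.

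Among genes lower in vip1-1, Cre09.g410850 had the largest culture-age term. It went from 5.35, 0.511 and 0.110 CPM in wild-type control to 97.6, 365 and 358 CPM in wild-type stress. In vip1-1 it went from 0 counts in all 3 controls to 5.03, 11 and 8.63 CPM in stress. The genotype term was -5.30 (SE 0.84, adjusted p 0.0077, edgeR) and the condition term 8.12 (adjusted p 2.8e-05, edgeR). The transcript was thus higher in old cultures of both genotypes, and its mean was lower in vip1-1 in each condition. In control this rests on 18, 7 and 3 wild-type counts. Neither condition alone called the difference (adjusted p 0.32 in control and 0.051 in stress, edgeR). The genotype call was lost under the share covariate (adjusted p 0.62). Cre02.g076987 (-2.98, SE 0.66, adjusted p 0.049, edgeR) and Cre01.g011550 (-4.51, SE 0.96, adjusted p 0.042, edgeR) were weaker calls. Each was lost in 10 of the 12 fits without 1 library, at adjusted p 0.063 to 0.13 and 0.058 to 0.13. Cre02.g076987 was kept without wild-type control replicate 3 or wild-type stress replicate 2, and Cre01.g011550 without wild-type control replicate 1 or vip1-1 control replicate 3.

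The calls that did not hang on a single library numbered 79 of the 193. They were called, with the same sign, in each of the 12 fits that left out 1 library, and 58 were higher and 21 lower in vip1-1. Of these 47 matched between conditions, 29 higher and 18 lower, and 12 of the 21 lower genes were on chromosome 16. Under the share covariate, 18 of the 116 matching genes stayed called, 11 higher and 7 lower. Of the 42 genes chosen by rule to be named here, 15 stayed called, and the other 27 kept their sign at adjusted p of 0.07 to 0.85. The replicate block ended the call of 9 of them (adjusted p 0.059 to 0.098): Cre03.g203850, Cre02.g144650, Cre02.g073400, Cre13.g603500, Cre03.g194517, Cre07.g326700, Cre02.g076987, Cre01.g011550 and Cre16.g672050. Scaling by library totals ended 10 calls (adjusted p 0.064 to 0.77), among them Cre06.g257500, Cre16.g680230 and Cre16.g674964. The abundant-feature share differed between the genotypes, so for the calls lost under that covariate genotype and share cannot be told apart here. A cause was not tested.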

How the data were processed

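The authors deposited whole-number read counts per gene and FPKM values for 17741 gene IDs in the 12 libraries. Libraries were made with a stranded mRNA kit (Illumina TruSeq), per the labels. Per the submitters’ processing notes HISAT2 and StringTie were used; tool versions, build, gene annotation and whether counting used strand are not given in the sources used here. Counts were analysed with edgeR 4.0.16 (R 4.3.3): filterByExpr by group left 15286 genes, libraries were scaled by TMM, and condition and genotype were fitted additively with robust quasi-likelihood dispersions. Values within conditions and interactions came from a group-means model on the same libraries. Standard errors were derived from each fold change and its F statistic (its size over root F). CPM used TMM-scaled library sizes. Members and gene lists were chosen with earlier results of these data known.

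The named genes were, among matching genes with at least 5 CPM in the higher genotype in both conditions (93 genes), the 10 largest in each direction and the 5 with the highest FPKM in each direction, plus the 3 most unequal called genes in each direction and up to 4 members of the 3 longest runs. The limits of at most 1 and at least 3 CPM, the pairs of opposite direction and the genes at 0 were chosen after values were seen. The reference table (Chlamydomonas_reinhardtii_v5.5) matched 17738 IDs, gave 0 symbols, and served for gene order only. Lists by function and a comparison of protein sequences were therefore not analysed here. Among called genes 5 overlap another gene body in that table, none of them named.

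After subtraction of group means, libraries of the same number correlated at 0.16, 0.19 and 0.4 between the control groups, over 0.1 for each pair, whereas every other pair of groups had at least 1 value below 0.1. On this check alone, the control libraries count as paired. Deviations within a group cancel out, so the 3 values are not independent of each other. A single value reached 0.3 elsewhere, for replicate 3 of wild-type control and vip1-1 stress. The main model did not use this pairing, and the count with the replicate block is given beside it. No 2 libraries agreed within sampling noise: the chi-square per degree of freedom between replicates was at least 12.8. On simulated data with 14975 genes, this genotype test recovered 77% of genes changed by 2 on the log2 scale. It recovered 15% of those changed by 1, with 1 false call among 93. Each gene was drawn independently, and changes were placed only in genes above a minimum mean count. No shift of many genes with the abundant-feature share was simulated, so false calls under such a shift were not measured.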

Additional observations from a re-analysis of the deposited data

How the results depend on the processing

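Each of the 116 matching genes kept its sign under all of the 25 alternatives that tested it (the count filter tested 78), but the counts moved. Genes called for genotype (193 here) numbered 99 with at least 10 counts in every library, 774 in DESeq2, 297 in limma voom, 2935 in voom with sample quality weights, 297 in the group-means model, 35 with the share covariate and 334 without both control libraries numbered 3. Leaving out 1 library gave 90 to 280. Those higher in vip1-1 (135 here) numbered 56 under that count filter, 432 in DESeq2, 1637 with quality weights and 27 with the covariate, and 65 to 169 without 1 library. Those lower (58 here) numbered 13 by library totals, 342 in DESeq2, 105 in voom, 1298 with quality weights, 100 in the group-means model, 8 with the covariate, 138 without both libraries numbered 3 and 24 to 111 without 1 library. Matching genes (116 here) numbered 75 by library totals, 362 in DESeq2, 405 with quality weights, 18 with the covariate, 238 without both libraries numbered 3 and 50 to 179 without 1 library.

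With the replicate block, 124 genes were called, 84 of them higher, and 75 matched. The block also covers the stress libraries, which the check did not pair. In control alone the block left 12 genes of 39, and fitting only those 6 libraries 8, with 9 (without wild-type control replicate 2 or vip1-1 control replicate 1) to 849 (without wild-type control replicate 3) when 1 library was left out. Stress alone gave 53 to 373 without 1 library, against 239. The ratio of the share of the 6 features stayed between 5.37 and 13.3 without 1 library. The cause of these shifts was not tested. Counts per library outside the 6 features fell to 2829344 in wild-type control replicate 1, which limits what can be read at low levels there.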
